A study of Mus musculus with 12 samples.

Results

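A set of 7 genes of the major histocompatibility complex (MHC) class II presentation route was followed in RNA-seq counts of mouse colonic epithelium. They are H2-Aa, H2-Ab1, H2-Eb1, H2-DMa, H2-DMb1, Cd74 and Ciita. The 7 were taken by gene symbol, after the Ensembl IDs of the count tables had been matched to symbols without their version. All 7 were found among the 46517 genes listed, and all 7 were among the 12522 genes with enough counts to be tested. The cells were colonic intestinal epithelial cells of C57BL/6 mice, 7 to 9 weeks old, of wild-type (WT) or Nfkb2-/- genotype, here called KO. Nfkb2 encodes the NF-kB precursor p100, and the labels name no promoter or Cre that would limit its loss to one cell type. Mice of each genotype were left untreated or received dextran sulfate sodium (DSS), which damages the lining of the colon, over 48 h. This gave 4 groups of 3 samples, which the design text calls biological replicates. The labels state that EDTA detached the cells from pieces of colon, and that about 90% of the isolated cells were CD45.2-negative and EpCAM-positive, so other cells remained.

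MHC class II molecules display peptides from endocytosed proteins to CD4+ T cells. An alpha and a beta chain pair in the endoplasmic reticulum with the invariant chain, encoded by Cd74, and travel with it to late endosomes, where proteases cut it to a fragment called CLIP and the H2-DM heterodimer exchanges CLIP for other peptides. B cells, dendritic cells and macrophages carry these molecules all the time, and intestinal epithelial cells can also carry them. Transcription of the class II chains, Cd74 and the H2-DM genes depends on the coactivator CIITA, encoded by Ciita, which binds no DNA itself and is recruited by the RFX, NF-Y and CREB proteins that sit on the X and Y boxes of class II promoters. Interferon-gamma is a well-known inducer of Ciita.

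Libraries held 5595909 to 8117740 counts. Levels are given as CPM, counts scaled to a common library size by TMM, a scaling that assumes most genes do not differ. No pair of replicates within a group agreed within sampling noise. Nfkb2 had 211 to 346 counts in the 6 WT libraries and 87 to 143 in the 6 KO libraries, in the direction of the labels. The epithelial markers Epcam, Cdh1, Krt8, Krt18, Krt19, Krt20, Vil1 and Cldn7 together held 24692 to 33096 CPM in untreated WT, 25481 to 26609 in DSS-treated WT, 25212 to 26753 in untreated KO and 21735 to 23472 in DSS-treated KO. Of these 8, Krt20, a keratin of differentiated epithelium, fell under DSS by 1.33 in WT (edgeR adjusted p 5.16e-06) and by 1.34 in KO (2.09e-05) on the log2 scale, and Vil1 was lower in KO than WT under DSS (-0.55, 0.0386). Their part in the class II results was not tested. The library numbers in the labels place all 6 WT libraries before all 6 KO libraries, so library order and genotype cannot be told apart, while untreated and DSS libraries alternate. In bulk RNA of this kind, fewer cells of a type and less RNA per cell cannot be told apart either.

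The members are encoded at 3 places in the genome (coordinates of GRCm38 in GENCODE M21). H2-DMa (chromosome 17 from 34119541 to 34139101) and H2-DMb1 (34153072 to 34160230) encode the chains of the peptide exchanger. H2-Ab1 (34257689 to 34269419), H2-Aa (34282744 to 34287823, minus strand) and H2-Eb1 (34305867 to 34316674) encode classical class II chains and follow on the same chromosome. Ciita lies on chromosome 16 from 10480059 to 10528418. Of the 50-base words of H2-DMb1, 22.65% also occur in the neighbouring H2-DMb2, which had 0 to 16 counts per library. H2-DMa shares 8.434% with Brd2 (874 to 1846 counts), which overlaps it on the other strand, and Ciita shares 1.464% with Dexi (5 to 45 counts). The counts of these 3 members are uncertain to that extent, for H2-DMb1 because the sequence of the separate gene H2-DMb2 is identical there, and for H2-DMa and Ciita because the libraries hold no strand information. H2-Aa shares 0.5139% with repeats, and H2-Ab1, H2-Eb1 and Cd74 share none.

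The promoters of H2-Aa and H2-Eb1 are shown because both chains were higher in untreated KO, and that of H2-Eb2 because it holds the Y box and X1 core of H2-Eb1 beside a gene with almost no counts. Each stretch runs from 150 to 11 bases before the annotated start, on the gene's own strand, and was read from the RefSeq promoter table for GRCm38.p6. Capitals mark the Y box CTGATTGG, the X1 box core, and the CCAAT core (ATTGG or its complement) where it lies outside a Y box.
H2-Aa, chr17:34287834-34287973, minus strand: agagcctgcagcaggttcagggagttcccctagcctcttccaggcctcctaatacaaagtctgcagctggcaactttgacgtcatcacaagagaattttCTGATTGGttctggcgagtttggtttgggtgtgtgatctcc
H2-Eb1, chr17:34305717-34305856, plus strand: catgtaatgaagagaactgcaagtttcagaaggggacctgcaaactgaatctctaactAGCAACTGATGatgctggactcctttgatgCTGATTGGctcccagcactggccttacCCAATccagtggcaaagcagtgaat
H2-Eb2, chr17:34325525-34325664, plus strand: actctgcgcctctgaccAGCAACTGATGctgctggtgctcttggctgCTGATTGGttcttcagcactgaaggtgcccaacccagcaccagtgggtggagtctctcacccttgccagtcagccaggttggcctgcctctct

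The Y box was found at -51 to -44 from the start of H2-Aa, at -62 to -55 in H2-Eb1 and at -103 to -96 in H2-Eb2. The X1 core was found at -92 to -82 in H2-Eb1, at -133 to -123 in H2-Eb2 and at -95 to -85 in H2-DMb1. H2-DMb1 has the CCAAT core ATTGG at -61 to -57 without the full Y box letters, and H2-DMa has it at -198 to -194 in 1 of its windows. The end of that window was not found near the start of any GENCODE M21 transcript of H2-DMa. Which window serves H2-DMa in these cells was not tested. Among all 32851 promoter windows of 300 bases, searched on both strands, 4.1% hold the Y box, 0.968% the X1 core and 37.4% the CCAAT core, which lies within every Y box. The interferon regulatory element (3.44% of windows) was not in the windows of these 4 members. A match is a description of letters only. H2-Ab1, Cd74 and Ciita are not in the promoter table. H2-Eb2, a second beta chain gene, had 0 to 6 counts per library.

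Levels of different members were compared per kilobase of exon, with all annotated exons of a gene merged. This length is 3798 bases for H2-Aa and 3448 for H2-DMa, against 2568 for H2-Ab1 and 1681 for H2-DMb1. The order of the members depends on these lengths, and the lengths of the transcripts made were not measured. Cd74 (chromosome 18 from 60803848 to 60812652), the invariant chain, was the highest member in every group, at 836 CPM per kb in untreated WT, 1230 in DSS-treated WT, 1343 in untreated KO and 1233 in DSS-treated KO. H2-Ab1 followed with 202, 256, 351 and 247 CPM per kb, and H2-Aa with 117, 142, 204 and 127. H2-Eb1 had 99.3, 137, 171 and 123 CPM per kb, and its samples overlapped those of H2-Aa in every group. The exchanger chains came next, H2-DMb1 at 66.5 to 96.9 and H2-DMa at 14.5 to 26.3 CPM per kb over the group means. Ciita was the lowest member, at 3.74 to 8.58 CPM per kb, and no other pair of neighbours in this order overlapped within a group.

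**Figure D1:**
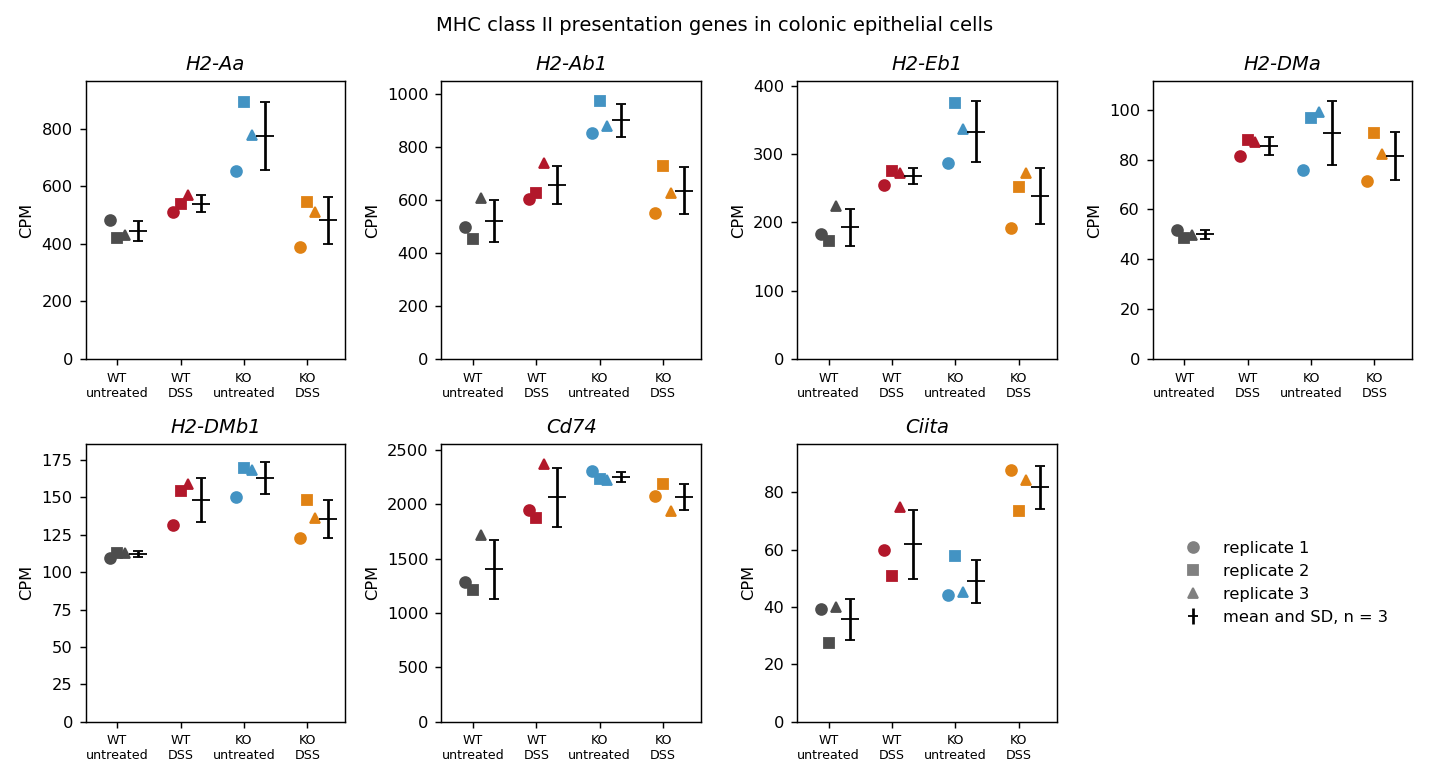
CPM of each of the 7 members (vertical axes, linear from 0) in every sample of the 4 groups, with the mean and SD of each group of 3. All 3 untreated KO samples lie above all 3 untreated WT samples for every member, and Ciita alone is higher in KO under DSS than in untreated KO.

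The first question was what loss of Nfkb2 does to these genes without injury. Untreated KO epithelium had more RNA of the chains, the invariant chain and the exchanger than untreated WT epithelium, by 1.46 to 1.81-fold. Of the 7 members, 6 were higher in KO (edgeR quasi-likelihood test, adjusted p under 0.05), while 1.72% of the 12522 genes tested passed in that direction, and 0 were lower, against 1.76%. The groups did not overlap for 7 of 7 members, against 19.3% of all genes. The median log2 difference was 0.79 over the members and -0.0015 over all genes tested. Leukocyte markers moved with the members here, with a summed level of 10.7 to 25.4 CPM in untreated WT and 64.5 to 77.9 CPM in untreated KO, and their part in the result was not tested.

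H2-Aa, the alpha chain of the I-A molecule, measured 483, 421 and 430 CPM in the untreated WT samples and 655, 893 and 777 CPM in untreated KO. Its log2 difference was 0.80 (SE 0.13, edgeR adjusted p 0.00334). H2-Ab1, which encodes the I-A beta chain, measured 499, 453 and 607 CPM in WT and 854, 973 and 878 CPM in KO. The KO samples of both genes lay wholly above the WT samples, and the difference of H2-Ab1 was 0.79 (SE 0.13, edgeR adjusted p 0.00286). H2-Eb1, the beta chain of I-E, measured 183, 173 and 224 CPM in WT and 287, 375 and 336 CPM in KO, a log2 difference of 0.79 (SE 0.14, edgeR adjusted p 0.00587). H2-Ea, the symbol of the alpha chain of I-E, was not among the symbols matched to the counts. H2-Eb1 therefore tells of the RNA of 1 chain only. Its level says nothing of an I-E molecule, which also needs the alpha chain and was not measured.

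H2-DMa had the largest of the 7 differences, with 51.7, 48.4 and 49.9 CPM in untreated WT and 75.9, 96.8 and 99.2 CPM in untreated KO. Its log2 difference was 0.86 (SE 0.14, edgeR adjusted p 0.00248). Its partner H2-DMb1 measured 110, 113 and 113 CPM in WT and 151, 170 and 168 CPM in KO, a log2 difference of 0.54 (SE 0.11, edgeR adjusted p 0.0131). The WT values of both chains lay close together, and KO replicate 1 was the lowest of its group for both. Brd2, which overlaps H2-DMa, had a log2 difference of 0.24 that did not pass (SE 0.14, edgeR adjusted p 0.463).

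Cd74 measured 1282, 1214 and 1715 CPM in untreated WT and 2305, 2239 and 2221 CPM in untreated KO, a log2 difference of 0.68 (SE 0.12, edgeR adjusted p 0.00564). WT replicate 3 was well above the other WT samples for Cd74, H2-Ab1 and H2-Eb1, and still below every KO sample. Ciita measured 39.4, 27.6 and 40.2 CPM in WT and 44.2, 57.7 and 45.3 CPM in KO. The samples did not overlap, but the gap was small and the log2 difference of 0.46 did not pass (SE 0.19, edgeR adjusted p 0.238). When each of the 6 libraries was left out in turn, H2-Aa, H2-Ab1, H2-Eb1, H2-DMa and Cd74 passed every time. H2-DMb1 did not pass without WT replicate 2 (adjusted p 0.0549), KO replicate 2 (0.0640) or KO replicate 3 (0.0696).

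In WT epithelium, 48 h of DSS went with more RNA of the exchanger, the invariant chain and the coactivator. H2-DMa, H2-DMb1, Cd74 and Ciita rose, by 1.32 to 1.73-fold, and none of the 7 fell. The share higher was 4 of 7, against 2.8% of all genes tested, and the share lower 0 of 7, against 3.5%. The groups did not overlap for 6 of 7, against 20.6% of all genes. The median log2 change was 0.47 over the members and 0.0063 over all genes tested. The leukocyte sum stood at 32.6 to 37.8 CPM in WT under DSS, above its untreated range, and its part was not tested. The untreated WT samples serve in this comparison and in that of the untreated genotypes, so the values are not independent of each other.

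H2-DMa measured 81.2, 88.0 and 87.1 CPM in the DSS-treated WT samples, against 48.4 to 51.7 CPM untreated, a log2 change of 0.77 (SE 0.14, edgeR adjusted p 0.00241). The overlapping Brd2 also had more counts under DSS, at a log2 change of 0.47 that did not pass (SE 0.14, edgeR adjusted p 0.0577). H2-DMb1 measured 131, 154 and 159 CPM under DSS, a log2 change of 0.41 (SE 0.11, edgeR adjusted p 0.0421). Cd74 measured 1946, 1876 and 2375 CPM under DSS, a log2 change of 0.56 (SE 0.12, edgeR adjusted p 0.0123). Every DSS sample of these 3 genes lay above every untreated sample, narrowly for Cd74, where untreated replicate 3 stood at 1715 CPM. Ciita measured 60.0, 50.8 and 74.9 CPM under DSS, all above its untreated samples, a log2 change of 0.79 (SE 0.19, edgeR adjusted p 0.0190).

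The classical chains moved less in WT. H2-Aa measured 511, 537 and 570 CPM under DSS, just above its untreated samples, and its log2 change of 0.28 did not pass (SE 0.13, edgeR adjusted p 0.295). H2-Ab1 measured 603, 628 and 738 CPM and overlapped the untreated samples, with a log2 change of 0.34 (SE 0.13, edgeR adjusted p 0.165). H2-Eb1 measured 254, 275 and 273 CPM, with no overlap, and a log2 change of 0.47 (SE 0.14, edgeR adjusted p 0.0694). H2-DMa passed in all 6 fits that each left out a library. Cd74 did not pass without untreated replicate 2 (adjusted p 0.0569) or DSS replicate 3 (0.0728), and Ciita did not without untreated replicate 2 (0.0752), DSS replicate 1 (0.0564) or DSS replicate 3 (0.107). H2-DMb1 did not pass without untreated replicate 1 (0.117), 2 (0.109) or 3 (0.0607) or DSS replicate 2 (0.154) or 3 (0.180), while H2-Ab1 (0.0335) and H2-Eb1 (0.0240) passed without untreated replicate 3. In a fit of the WT samples alone only H2-DMa passed, with Cd74 at an adjusted p of 0.0792, Ciita at 0.0662 and H2-DMb1 at 0.129, and with no filter on low counts H2-DMb1 was at 0.0969 and H2-Eb1 at 0.00954. DESeq2 also called H2-Eb1 (adjusted p 0.0439).

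In KO epithelium the same treatment went with less RNA of the I-A chains and more RNA of the coactivator. Without a replicate block H2-Aa and H2-Ab1 fell, Ciita rose, and the other 4 did not pass. With the block Ciita did not pass (edgeR adjusted p 0.0581) and H2-Eb1 did. The 2 lower members stand against 2.04% of all genes tested, and the 1 higher member against 1.88%. The groups did not overlap for 6 of 7 members, against 24.3% of all genes, and the median log2 change was -0.26 over the members and 0.015 over all genes tested. The leukocyte sum did not fall, at 88.7 to 116 CPM under DSS against 64.5 to 77.9 CPM untreated.

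H2-Aa measured 390, 544 and 511 CPM in KO under DSS, all below the untreated KO samples at 655 to 893 CPM. It fell by 0.69 on the log2 scale (SE 0.13, edgeR adjusted p 0.00905). H2-Ab1 measured 550, 727 and 628 CPM, below its untreated samples at 854 to 973 CPM, and fell by 0.51 (SE 0.13, edgeR adjusted p 0.0397). DSS replicate 1 was the lowest of its group for both chains. H2-Eb1 measured 192, 252 and 272 CPM against 287 to 375 CPM untreated, with no overlap and a log2 change of -0.48 that did not pass (SE 0.14, edgeR adjusted p 0.0802).

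H2-DMb1 measured 123, 148 and 136 CPM in KO under DSS, a log2 change of -0.26 (edgeR adjusted p 0.244). H2-DMa measured 71.2, 90.6 and 82.3 CPM and overlapped its untreated samples, at -0.16 (edgeR adjusted p 0.655). Cd74 measured 2082, 2185 and 1944 CPM, just below the untreated range of 2221 to 2305 CPM, at -0.12 (edgeR adjusted p 0.710). These 3 did not pass. Ciita went the other way, with 87.7, 73.4 and 84.4 CPM under DSS against 44.2 to 57.7 CPM untreated. The DSS samples of Ciita lay wholly above, and it rose by 0.74 on the log2 scale (SE 0.18, edgeR adjusted p 0.0373).

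With the replicate number as a block, H2-Eb1 was at -0.49 in KO (edgeR adjusted p 0.0483) and Ciita at 0.72, which makes 3 lower and 0 higher members. DESeq2 (0.0396) and the fit with no filter (0.00662) also called H2-Eb1. H2-Aa did not pass without untreated replicate 2 (adjusted p 0.0517) and passed in the other 5 fits. H2-Ab1 did not pass without untreated replicate 1 (0.0755), 2 (0.164) or 3 (0.0962) or DSS replicate 1 (0.161) or 3 (0.116). Ciita did not pass without untreated replicate 1 (0.150) or 3 (0.151) or DSS replicate 1 (0.124), 2 (0.0682) or 3 (0.110). The call of Ciita in KO thus depends on which libraries enter the fit.

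Under DSS, WT and KO epithelium had class II levels that overlapped for all 7 members. By edgeR 0 of 7 passed in either direction, where 3.11% of all genes tested did, and the groups were apart for 0 of 7, against 22.3% of all genes. DESeq2 called 0 as well. The log2 differences of the chains, the exchanger and Cd74 lay between -0.16 and 0.0031, with SEs of 0.11 to 0.14. Ciita was 61.9 ± 12.1 CPM (SD, n = 3) in WT and 81.8 ± 7.48 CPM in KO, a log2 difference of 0.40 (SE 0.18, edgeR adjusted p 0.322). It was the 1 member with an unadjusted p under 0.05. A difference that misses the threshold does not show that the genotypes had equal levels.

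The interaction asked whether the DSS change differed between genotypes, as the change in KO minus that in WT. Of the 7 members, 5 had a more negative change in KO, against 0.527% of all genes tested, and 0 had a more positive one, against 1.17%. They were H2-Aa (-0.96, SE 0.19, edgeR adjusted p 0.0128), H2-Eb1 (-0.95, SE 0.20, edgeR adjusted p 0.0226), H2-DMa (-0.93, SE 0.19, edgeR adjusted p 0.0181), H2-Ab1 (-0.84, SE 0.18, edgeR adjusted p 0.0253) and H2-DMb1 (-0.67, SE 0.16, edgeR adjusted p 0.0434). Cd74 had a value of similar size that did not pass (-0.68, SE 0.17, edgeR adjusted p 0.0701). Ciita was at -0.05 (SE 0.26, edgeR adjusted p 0.984), from changes of 0.79 in WT and 0.74 in KO. The median was -0.84 over the members and -0.0066 over all genes tested. The interaction uses all 12 samples of the comparisons already described and is not independent of them.

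The interaction of H2-Aa passed in all 12 fits that each left out a library, with an adjusted p of up to 0.0466. H2-DMa did not pass in 6 of the 12, those without WT untreated 2, WT DSS 2 or 3, KO untreated 2 or 3 or KO DSS 1 (adjusted p 0.0536 to 0.0741). H2-Ab1 did not pass in 7, those without WT untreated 1 or 2, WT DSS 3, KO untreated 2 or 3 or KO DSS 1 or 3 (0.0509 to 0.0781). H2-Eb1 did not pass in 8, those without WT untreated 1 or 2, any of the WT DSS samples, KO untreated 2 or 3 or KO DSS 1 (0.0504 to 0.0762). H2-DMb1 passed in 2, those without WT untreated 3 or WT DSS 1, and was at 0.0511 to 0.135 in the others, at 0.0517 with size factors and at 0.0569 with no filter. Cd74 passed without WT untreated 3 (0.00132), with DESeq2 (0.0228) and with no filter (3.86e-05). With single libraries left out, the log2 values of these 6 members ran from -1.07 for H2-Aa to -0.57 for Cd74 and kept their sign.

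**Figure D2:**
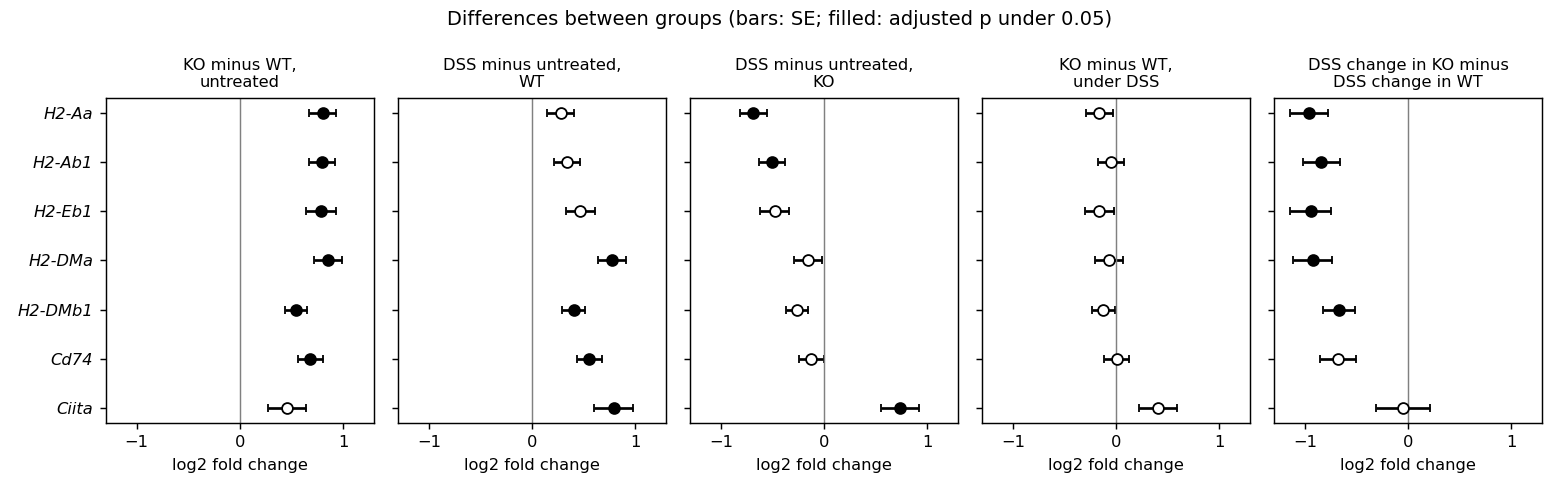
Log2 fold change of each member (horizontal axes) in the 5 comparisons, with bars for the SE and filled points where the adjusted p was under 0.05. The chains, the exchanger and Cd74 lie right of 0 for untreated genotypes and for DSS in WT, left of 0 for DSS in KO, and near 0 between genotypes under DSS. Ciita lies at 0.79 and 0.74 for DSS in WT and in KO.

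Because Ciita rose under DSS in KO while H2-Aa and H2-Ab1 fell, each member was also expressed as counts per Ciita count in the same library, a quantity that needs no scaling. In untreated KO, H2-Aa had 15.8 ± 1.21 counts (SD, n = 3) for each Ciita count, and under DSS 5.97 ± 1.49. H2-Ab1 went from 18.5 ± 1.46 to 7.87 ± 1.86, and Cd74 from 46.7 ± 7.02 to 25.5 ± 3.70. The rise of Ciita by itself lowers such a ratio for a gene that does not change. The DSS samples lay wholly below the untreated KO samples for 6 of 6 members, and so did the ratios of 58.6% of the other 12521 genes tested, so the lack of overlap says little about the members.

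In WT the ratios moved less. H2-Aa went from 12.8 ± 2.32 to 8.90 ± 1.51 counts per Ciita count and H2-Ab1 from 14.7 ± 1.90 to 10.8 ± 1.39, in each case with no overlap, as for 51.1% of the other genes tested. For H2-DMa the ratio was 1.44 ± 0.28 untreated and 1.42 ± 0.29 under DSS, with overlap, and H2-Eb1, H2-DMb1 and Cd74 overlapped too. The ratios are given as a description with no test, and counting error of Ciita (168 to 609 counts) enters all of them.

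**Figure D3:**
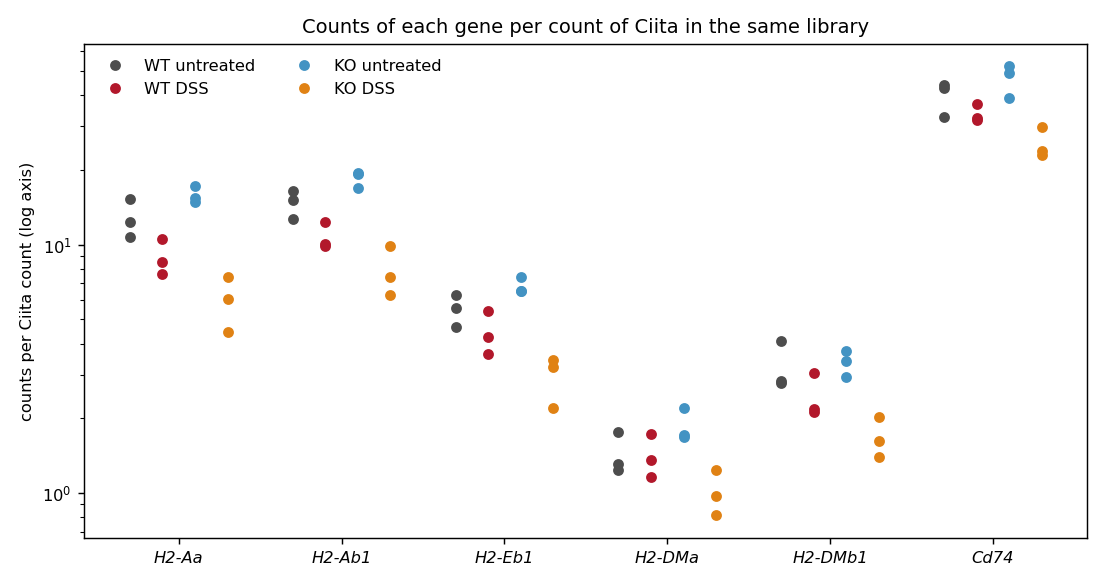
Counts of each of 6 members per count of Ciita in the same library (vertical axis, log scale), by group, 1 point per sample. KO samples under DSS lie below untreated KO samples for every gene, 4.44 to 7.41 against 14.8 to 17.2 for H2-Aa.

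The rest of the pathway was read from a list of 40 symbols in 5 groups, of which 37 were in the tables and 31 were tested. In untreated epithelium 0 of the 31 were higher in KO by edgeR, against 1.72% of all genes tested, and 1 was lower, against 1.76%. At an unadjusted p under 0.05 1 was higher, and DESeq2 called 1 higher, Ctsh. The median log2 difference of the 31 was -0.012, against 0.79 for the members. With DSS 3 rose in WT, against 2.8% of all genes tested, and 4 in KO, against 1.88%. None was lower in either by edgeR, against 3.5% and 2.04%. Between genotypes under DSS 2 were higher in KO, where 3.11% of all genes passed in either direction. The interaction passed for 0, against 1.17% higher and 0.527% lower, with 6 at an unadjusted p under 0.05 and 0 called by DESeq2. The counts for untreated genotypes, for genotypes under DSS and for the interaction lie near these shares and say little about the list. The DNA-binding partners of CIITA (Rfx5, Rfxap, Rfxank, Nfya, Nfyb, Nfyc and Creb1) passed in none of the 5 comparisons by edgeR. DESeq2 called 1 of the 7, Nfyb, as lower under DSS in KO, where edgeR gave -0.72 (SE 0.20, adjusted p 0.0715).

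Of the 8 genes of the interferon-gamma route, Irf1, Irf8 and Socs1 rose under DSS in WT and in KO. That is 3 of 8 in each genotype, against 2.8% of all genes tested in WT and 1.88% in KO. Irf1, a transcription factor that acts on the Ciita promoter, measured 448, 396 and 350 CPM in untreated WT and 564, 603 and 548 CPM under DSS. In KO it measured 347, 375 and 322 CPM untreated and 516, 468 and 521 CPM under DSS. The DSS samples lay above in both genotypes, with log2 changes of 0.52 (SE 0.10, edgeR adjusted p 0.00580) and 0.53 (SE 0.10, edgeR adjusted p 0.00981). Irf1 did not pass in KO without untreated replicate 3 (adjusted p 0.0634).

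Irf8, a related factor, measured 198, 179 and 201 CPM in untreated WT and 163, 138 and 140 CPM in untreated KO. Under DSS it measured 288, 277 and 303 CPM in WT and 296, 263 and 266 CPM in KO. It rose by 0.59 in WT (SE 0.10, edgeR adjusted p 0.00205) and by 0.91 in KO (SE 0.10, edgeR adjusted p 0.000156). Its lower level in untreated KO (-0.39, edgeR adjusted p 0.0458) did not pass without WT untreated replicate 1 (0.0895), 2 (0.0545) or 3 (0.0642), without KO untreated replicate 2 (0.180) or 3 (0.193), in a fit of the untreated samples alone (0.185), or with no filter (0.101).

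Socs1, an inhibitor of JAK kinases, rose from 5.65 to 18.0 CPM in WT (log2 change 1.67, SE 0.34, edgeR adjusted p 0.00785) and from 5.41 to 15.5 CPM in KO (1.52, SE 0.34, edgeR adjusted p 0.0212). Its samples did not overlap in either genotype, on counts of 22 to 138. In KO it did not pass without untreated replicate 1 (adjusted p 0.0672) or 2 (0.104) or DSS replicate 2 (0.0525) or 3 (0.0921). The receptor genes Ifngr1 and Ifngr2, the kinases Jak1 and Jak2, and Irf2 passed in none of the 5 comparisons. Ifngr1 stood at group means of 434 to 510 CPM.

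Of the 12 tested genes for endolysosomal processing, 3 passed, each in 1 comparison. For DSS in KO 1 was higher, against 1.88% of all genes tested. Between genotypes under DSS 2 were higher in KO, where 3.11% passed in either direction. Ctse, an aspartic protease, rose in KO under DSS from 141, 147 and 135 CPM to 193, 213 and 184 CPM, with no overlap (log2 change 0.48, SE 0.12, edgeR adjusted p 0.0341). Ctsh, a cysteine protease, was under DSS higher in KO than WT, at 125, 129 and 129 CPM against 73.4, 92.8 and 76.8 CPM (0.66, SE 0.14, edgeR adjusted p 0.0222). March1, a ligase that marks class II molecules for removal from the surface, had 13, 11 and 21 counts in KO under DSS and 1, 0 and 1 in WT under DSS (edgeR adjusted p 0.0268). None of the 3 calls was stable: with single libraries left out Ctse passed in 0 of 6 fits (adjusted p up to 0.161), Ctsh in 1, that without WT DSS replicate 2 (up to 0.123) and March1 in 0 (up to 0.127). Ctss, the protease that trims the invariant chain, passed in none of the 5 comparisons and had group means of 436 to 551 CPM.

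The other class II genes were at or near 0. H2-Eb2 had 0 to 6 counts per library, H2-Oa 0 to 5, H2-DMb2 0 to 16 and H2-Ob 0 to 27, and of these 4 only H2-Ob was tested and did not pass. H2-Oa and H2-Ob encode the H2-DO heterodimer, an inhibitor of H2-DM that is known from B cells. Genes for the costimulatory molecules Cd80 (0 to 2 counts), Cd86 (0 to 16) and Cd40 (0 to 8) were also close to 0. Cd274, which encodes the checkpoint ligand PD-L1, measured 8.06 to 9.98 CPM in untreated KO and 13.6 to 23.3 CPM in KO under DSS, and did not pass (log2 change 0.87, edgeR adjusted p 0.231).

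**Figure D4:**
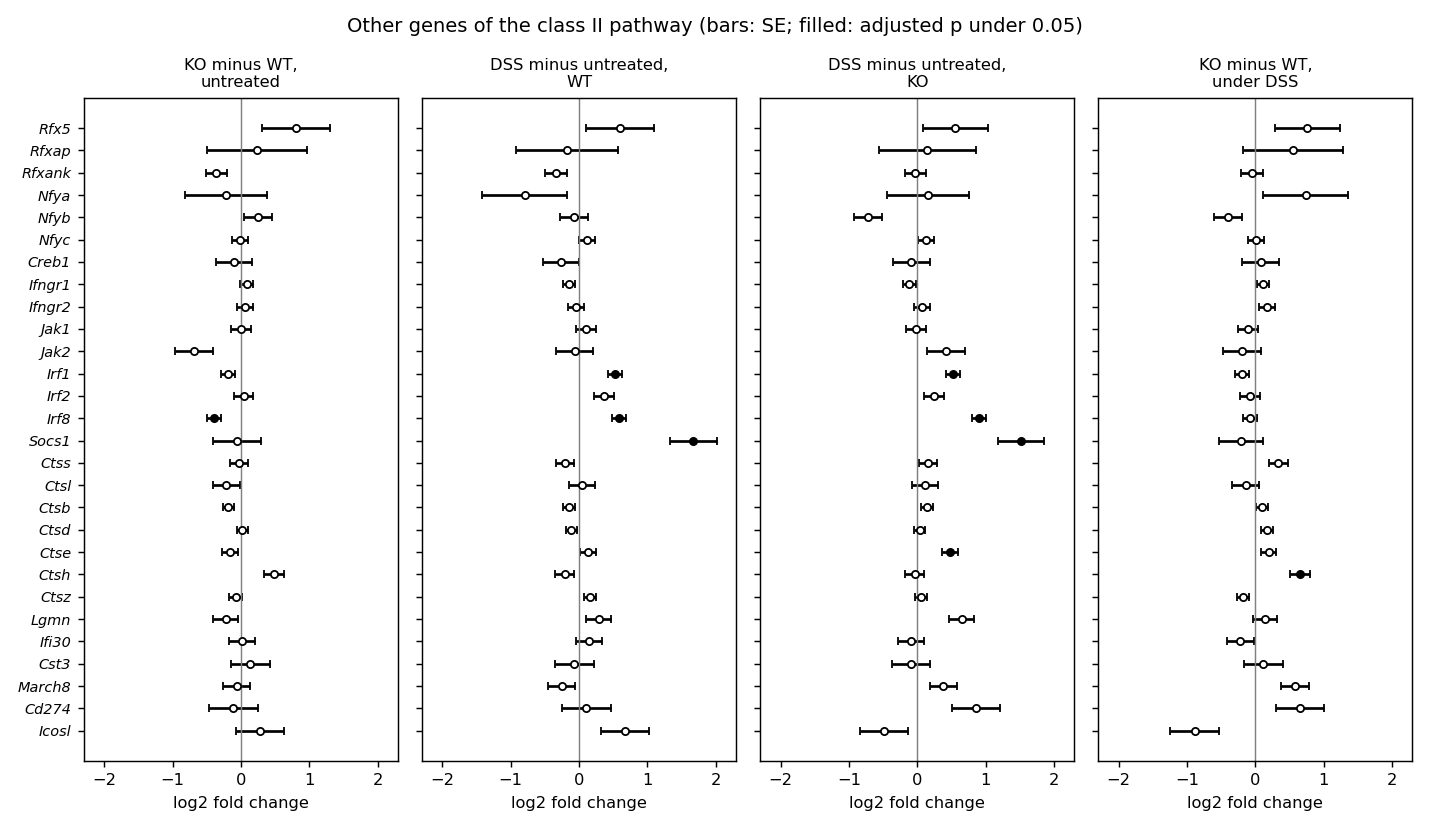
Log2 fold change (horizontal axes) of 28 of the 31 tested pathway genes in 4 comparisons, with bars for the SE and filled points where the adjusted p was under 0.05. March1, Cd86 and H2-Ob, with few counts, are not drawn. Irf1, Irf8 and Socs1 are filled for DSS in both genotypes.

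Since other cells remained in the preparations, markers of cells that carry class II were read in the same libraries. The 5 leukocyte genes Ptprc, Coro1a, Laptm5, Cd52 and Cd53 summed to 10.7 to 25.4 CPM in untreated WT, 32.6 to 37.8 in DSS-treated WT, 64.5 to 77.9 in untreated KO and 88.7 to 116 in DSS-treated KO. This order is that of the members between the untreated genotypes and for DSS in WT, and not for DSS in KO, where the sum of the 7 members went from 4371 to 4804 down to 3495 to 4020 CPM. Of the 4 leukocyte genes tested, all 4 were higher in untreated KO than in untreated WT, against 1.72% of all genes tested. With DSS 2 rose in WT, against 2.8%, and 0 in KO, against 1.88% (2 at an unadjusted p under 0.05, and 0 by DESeq2). Under DSS 3 were higher in KO than WT, where 3.11% of all genes passed in either direction. The part of these cells in the class II differences was not tested.

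Defining markers of B cells were at or near 0. Cd79a had 0 to 7 counts per library, and Pax5 had 0 in 11 of the 12. The 8 B cell genes summed to 3.24 to 7.55 CPM in untreated WT and to 1.59 to 3.10 CPM in untreated KO, so their sum was lower in the group where the members were highest, and to 3.91 to 7.29 and 2.52 to 8.49 CPM in WT and KO under DSS. Among dendritic cell genes Cd209a had 0 counts in every library, Clec9a 0 in 11, Xcr1 0 to 4 and Flt3 0 to 15. The 8 of them summed to 0.927 to 5.41 CPM in untreated WT, 3.64 to 6.69 in DSS-treated WT, 2.81 to 6.53 in untreated KO and 5.63 to 12.9 in DSS-treated KO. Only 1, Itgax, had enough counts to be tested, and it passed in no comparison. Its log2 change under DSS was 0.85 in WT (SE 0.79) and 1.23 in KO (SE 0.74). Its difference of KO from WT was 0.59 untreated (SE 0.79) and 0.98 under DSS (SE 0.74).

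The 12 macrophage genes summed to 108 to 148 CPM in untreated WT, 242 to 249 in DSS-treated WT, 174 to 192 in untreated KO and 244 to 271 in DSS-treated KO. Most of this was Cd14, at 65.2 to 188 CPM, whose interaction was also negative (-1.05, SE 0.15, edgeR adjusted p 0.00119), while Adgre1 had 0 to 45 and Csf1r 0 to 85 counts. Of the 11 tested, 4 were higher and 1 lower under DSS in WT, against 2.8% and 3.5% of all genes tested. For DSS in KO 1 was higher, against 1.88%. At an unadjusted p under 0.05 7 were higher and 1 lower in that comparison, and DESeq2 called 3 higher and 1 lower. The groups were apart for 8, against 24.3% of all genes. The median log2 change of the 11 was 1.60, and 0.015 over all genes tested. In untreated KO 2 were higher than in untreated WT, Cd14 (0.68, edgeR adjusted p 0.00216) and Lyz2 (2.05, edgeR adjusted p 0.0116), against 1.72%. There 7 were higher at an unadjusted p under 0.05 and 5 by DESeq2, and the groups were apart for 6, against 19.3%. The median log2 difference of the 11 was 1.62, and -0.0015 over all genes tested. Under DSS 1 was higher in KO than WT, where 3.11% passed in either direction. There 4 were higher and 1 lower at an unadjusted p under 0.05, and the groups were apart for 6, against 22.3%. The 6 T cell genes summed to 2.32 to 6.56 CPM in untreated WT, 6.69 to 11.9 in DSS-treated WT, 10.2 to 20.4 in untreated KO and 17.3 to 30.3 in DSS-treated KO. Of the 4 tested, 1, Cd3e, was higher in untreated KO than WT (2.68, edgeR adjusted p 0.0111), against 1.72%. Cd3e also rose under DSS in WT (2.06, edgeR adjusted p 0.0355), against 2.8%. For DSS in KO and between genotypes under DSS 0 of the 4 passed, against 1.88% higher and 3.11% in either direction. The 6 plasma cell genes summed to 401 to 528 CPM in untreated WT, 336 to 348 in DSS-treated WT, 320 to 380 in untreated KO and 259 to 302 in DSS-treated KO, most of it Sdc1, which epithelium also has and which fell under DSS in WT (-0.65, edgeR adjusted p 0.00112). Igha, an immunoglobulin heavy chain gene, stood at 6.95 to 33.7, 42.5 to 50.01, 4.58 to 7.96 and 4.07 to 14.7 CPM in the same order. It was lower in KO than WT under DSS (-2.42, SE 0.50, edgeR adjusted p 0.0146), and in untreated KO its -1.92 did not pass (0.05004). The 6 stromal and endothelial genes summed to at most 6.72 CPM. For each of these lists, its part in the class II results was not tested.

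**Figure D5:**
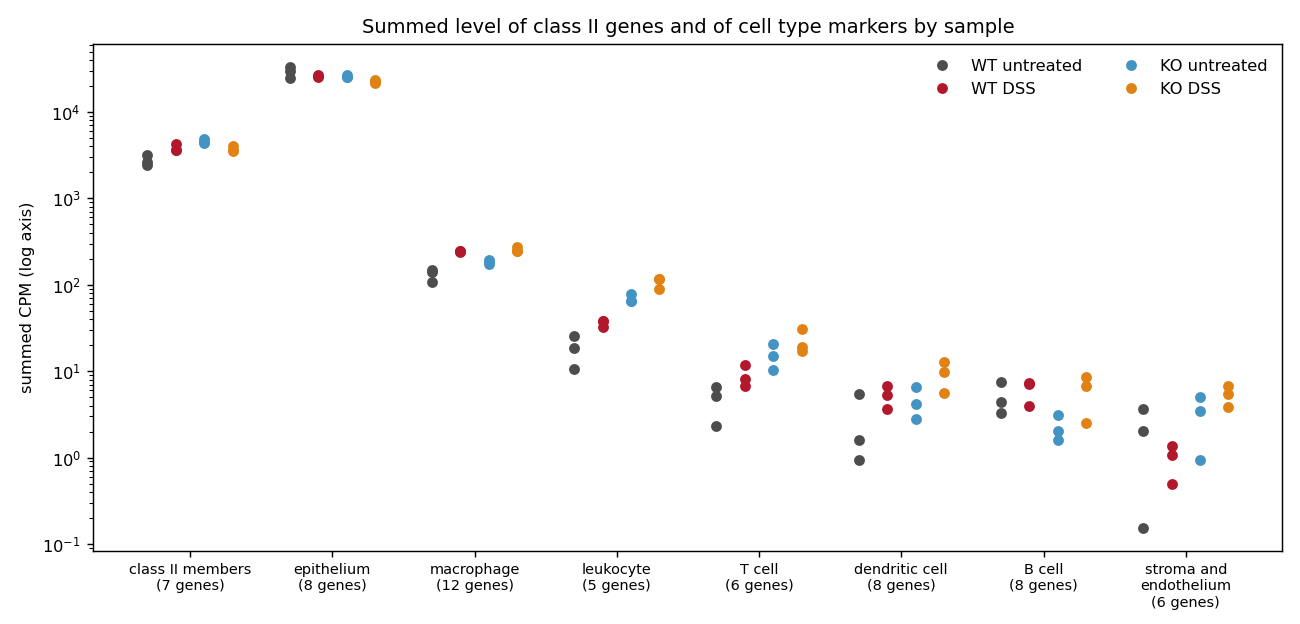
Summed CPM (vertical axis, log scale) of the 7 members and of 7 marker lists in each sample, by group. Leukocyte sums are highest in KO under DSS, where the members' sum of 3495 to 4020 CPM lies below that of untreated KO. T cell sums overlap in KO, at 10.2 to 20.4 CPM untreated and 17.3 to 30.3 CPM under DSS.

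Other genes share the stretch of chromosome 17 that runs from H2-DMa to H2-Eb1. Of its 17 annotated genes, 5 were tested besides the members, namely Tap1, Tap2, Psmb8, Psmb9 and H2-Ob. In untreated epithelium 0 of the 5 passed between genotypes, against 1.72% of all genes tested higher and 1.76% lower, in the comparison where the 5 members of the stretch all passed. Their log2 differences were -0.095 (SE 0.089) for Tap1, 0.27 (SE 0.10) for Tap2, -0.0078 (SE 0.15) for Psmb8, -0.25 (SE 0.17) for Psmb9 and 1.69 (SE 1.65) for H2-Ob, which had few counts. Tap1, a subunit of the peptide pump that feeds class I molecules, rose under DSS by 0.43 in WT (SE 0.09, edgeR adjusted p 0.00886) and by 0.73 in KO (SE 0.09, edgeR adjusted p 0.000291), where H2-Aa fell. In WT it did not pass without DSS replicate 3 (adjusted p 0.0555) or in a fit of the WT samples alone (0.0620). Tap2 also passed, at 0.41 in WT (edgeR adjusted p 0.0279) and 0.39 in KO (0.0468), but not in KO with the replicate block (0.0534). With no filter on low counts it was at 0.104 in WT and 0.188 in KO, with only the groups compared at 0.108 and 0.0516, and with single libraries left out it passed in 2 of 6 fits in WT and 0 of 6 in KO. Psmb8 had a log2 change of 0.53 in WT that did not pass (SE 0.15, edgeR adjusted p 0.0550), and 0.18 in KO (0.640). In WT it passed with DESeq2 (0.0283), no filter (0.00261), the block (0.0309) and only the groups compared (0.0250). It passed in 0 of 6 fits that each left out a library.

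A description of likeness closes the account. The log2 CPM of each of the 7 members was scaled over the 12 samples and averaged, and 8854 other genes whose log2 CPM averaged 3 or more were ranked by Pearson correlation with that mean. The samples fall into 4 groups, so such a correlation mostly reflects the order of the groups, and it is given without a p. The 8 highest were Gsta3 (0.96), A430005L14Rik (0.92), Lsr (0.91), Fut4 (0.91), Mmachc (0.89), Ubd (0.88), Npm1 (0.88) and 1700037H04Rik (0.88). Ubd, a ubiquitin-like gene known to respond to interferon-gamma, had means of 4.48 ± 0.53 CPM (SD, n = 3) in untreated WT, 13.3 ± 2.68 in DSS-treated WT, 35.9 ± 6.00 in untreated KO and 28.4 ± 6.05 in DSS-treated KO. Lsr, a tricellular junction gene of epithelium, had means of 116 ± 17.3, 185 ± 8.94, 200.1 ± 5.67 and 186 ± 6.94 CPM in the same order. Its mean was lowest in untreated WT, as were those of Ubd and of the 7 members. Genes picked for likeness to the members largely share this order by the selection itself.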

How the data were processed

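RNA of 12 samples was analysed, 3 per group, grouped by the titles. The authors deposited raw counts, whole numbers of reads for each gene, with no normalization visible in the values. The submitters' processing notes name STAR 2.5.2b, featureCounts 1.5.0 and the builds GRCm38 and mm10, with no role or order, and the annotation and strand setting are not given in the sources used here. Per the labels' protocols, libraries were made from 2 ng of RNA by SMART-seq2 and Nextera XT. This method uses no molecular identifiers and does not mark strand. Symbols, coordinates and exon lengths (all exons of a gene merged) come from GENCODE M21, which matched 46005 of the 46517 IDs and left 512 without a symbol. Promoter sequences come from a RefSeq table (GRCm38.p6).

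In R 4.3.3 with edgeR 4.0.16, filterByExpr kept 12522 genes, TMM scaled the libraries, each of the 4 groups had its own coefficient in 1 model of the 12 samples, and the two-sided quasi-likelihood F test was applied to 5 contrasts. A gene passed at a Benjamini-Hochberg adjusted p under 0.05 over all genes tested. Every adjusted p is from edgeR unless another tool is named. SEs are the log2 fold change divided by the root of F and are approximate. Total counts were 5595909 to 8117740, the common biological coefficient of variation was 0.227, and replicate pairs differed by a chi-square of 6.51 to 27.0 per degree of freedom. The script was tested on simulated data. The p-values set the differences between group means against the spread between replicate samples, in an estimate that borrows from all genes tested.

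The members and lists were chosen with earlier results of these data known. Named are the 7 members, Nfkb2, every gene of the pathway lists that passed in a contrast, and the 8 genes most like the members. Other genes were named after their values were seen. A gene of the pathway list and one of the marker lists are not reported here. The alternatives were size factors, DESeq2 1.42.0, other filters, only the groups compared, a replicate block, and each library left out. Sample numbers 1 to 3 recur in the titles of each group. The deviation of each sample from its group mean was correlated over genes with that of the sample with the same number. These correlations exceeded 0.1 for every pair for DSS in KO (0.204, 0.106 and 0.127) and for no other comparison. The main values there are from the fit without a block, and those with the block stand beside them where they change a call.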

Additional observations from a re-analysis of the deposited data

Results flagged for a closer look

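For 5 of the 7 members the DSS change differed between genotypes by the test of the interaction itself (edgeR, all 12 samples), against 0.527% of all genes tested that were lower. The difference, as the change in KO minus that in WT on the log2 scale, was -0.96 for H2-Aa, -0.84 for H2-Ab1, -0.95 for H2-Eb1, -0.93 for H2-DMa and -0.67 for H2-DMb1. In each case the estimated change was positive in WT and negative in KO. H2-DMa and H2-DMb1 passed in WT and not in KO, H2-Aa and H2-Ab1 passed in KO and not in WT, and H2-Eb1 passed in neither. With each library left out in turn, H2-Aa passed in 12 of 12 fits, H2-DMa in 6, H2-Ab1 in 5, H2-Eb1 in 4 and H2-DMb1 in 2. No test for outlying samples was applied to groups of 3.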

How the results depend on the processing

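No called value changed sign. Over 455 tests of members under the alternatives, 382 kept their side of the threshold, 62 lost a call and 11 gained one. Of 241 such tests of calls, 179 kept them. With at least 10 counts in every sample no call of a member changed. DESeq2 gave 782 genes for DSS in KO, 740 for untreated genotypes, 634 for genotypes under DSS and 355 for the interaction, and testing with no filter gave 776, 703, 642 and 356, against 491, 436, 390 and 213. With only the groups compared, 467 genes passed for DSS in WT (789 in the fit of all samples), with 1 member higher, and 195 for untreated genotypes. This fit is not defined for the interaction.

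With the replicate number as a block, 695, 409, 345, 290 and 186 genes passed for DSS in WT, DSS in KO, untreated genotypes, genotypes under DSS and the interaction. For DSS in KO, 0 members were higher. H2-Eb1 passed for DSS in WT with the block (0.47, edgeR adjusted p 0.0390), and no other member changed its call outside DSS in KO. The same-numbered correlations were 0.0138 to 0.128 for DSS in WT, where each sample correlated best with its own number, -0.175 to -0.0535 for untreated genotypes and -0.117 to -0.0103 under DSS.

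With single libraries left out, DSS in WT gave 483 to 958 genes and 1 to 5 members higher, DSS in KO 235 to 302 genes with 0 to 1 members higher and 0 to 2 lower, untreated genotypes 212 to 725 genes with 5 to 6 members higher, genotypes under DSS 160 to 231 genes, and the interaction 152 to 350 genes with 1 to 6 members lower. Without WT untreated 3 the count for untreated genotypes was 725 and that for the interaction 350. A total of 3 counts, 0.356 to 0.530 CPM depending on the library, is the least that could be told from 0, for counting error only. This limits H2-Eb2, H2-Oa, H2-Ob, H2-DMb2, Cd80, Cd86, Cd40, March1 and several cell type markers, and no member.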
